A study of Notophthalmus viridescens with 18 samples.

Results

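Senescent A1 newt cells carried 64 transcripts whose normalised read count was at least 4-fold higher than in each of the other 5 groups of the study. The 64 came from 27395 assembled transcripts in each deposited table. A normalised read count is the rounded estimated count of an entry divided by the median-ratio size factor of its library. An entry was kept when its mean over the 3 senescent libraries was at least 100, was at least 4 times each of the other 5 group means, and when the lowest senescent library stood above the highest of the other 15. Of the 66 entries that met the rule, 2 (matrix metalloproteinase 3/10a and coagulation factor XI) belonged to 4 entries set aside by identifier. The contrast of senescent cells with every other group was therefore used up by the choice, and the levels in senescent cells are given below as description, without a test. All 64 entries passed the filter on low counts that preceded the tests. That filter was run over all 6 groups, so reads in SEN alone could carry an entry through. With only the 2 groups compared, 46 to 61 of the 64 passed, depending on the comparison.

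RNA was sequenced from 18 libraries of A1 cells, a myogenic line derived from limb mesenchyme of the newt Notophthalmus viridescens, with 3 libraries in each of 6 groups. Proliferating cells (PRO) were kept in 10% FCS with vehicle only and collected on day 12. Senescent cells (SEN) were given 20 µM etoposide, a topoisomerase inhibitor that breaks DNA, with 1 µM nutlin, which stabilises p53, for 24 h, stayed in nutlin for another 11 days in 10% FCS, and were collected on day 12. Myotubes, multinucleate cells formed by fusion, were made over 5 days in 0.25% FCS and then kept for 3 more days. MT_0.25% stayed at that serum level and MT_10% was moved to 10% FCS, while MT_0.25%_PRO_CM and MT_0.25%_SEN_CM received low-serum medium that proliferating or senescent cells, respectively, had conditioned over 48 h. Myotubes were collected on day 8 and purified by size on filters, a step that PRO and SEN cells did not undergo, and the RNA kits differed between cells and myotubes. No source used here says whether the 3 libraries of a group came from separate cultures, so every p-value measures only the spread between these libraries.

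Cellular senescence is a lasting withdrawal from the cell cycle that follows DNA damage and other stress and that p53 and its target, the kinase inhibitor p21, help to hold. Senescent cells stay metabolically active and release a mixture of cytokines, growth factors, proteases and protease inhibitors known as the senescence-associated secretory phenotype. In salamanders such cells appear during limb regeneration and are later cleared, and A1 cells are used as a culture model of them.

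Estimated counts per library ran from 20609828 to 62991718. The state of the SEN libraries was examined with marker lists that the study drew up on the same libraries, which are therefore no independent evidence. All 17 proliferation transcripts were lower in SEN than in PRO (background 22.6% of 23107 entries tested), 11 of the 11 tested transcripts of the 12 listed as raised in senescence were higher (background 28.2%), and the 3 listed as lowered, Hmgb1, Hmgb2 and Lmnb1, were lower. Of the same 11, 6 were higher and 3 lower in MT_0.25% than in PRO (background 38.0% and 31.7%). Rises in that list were thus not confined to SEN. None of the 15 entries of that senescence list is among the 64, since its Mmp3/10a entry, which met the rule, was set aside. The 21 muscle transcripts summed to 6674 to 7185 normalised reads in SEN, 16251 to 28910 in PRO and 34257 to 68594 in myotube libraries. Of these, 16 of 17 tested were higher in MT_0.25% than in PRO (background 38.0%). Myf5 alone averaged 19155 in PRO and 3636 in SEN and made up most of both sums. Between SEN and PRO the list split, with 3 of 17 tested higher in SEN and 4 lower (background 28.2% and 22.6%). These are bulk libraries, so fewer cells that express a transcript and less RNA per cell cannot be told apart.

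The 64 transcripts took 0.413%, 0.272% and 0.360% of the estimated reads of the 3 SEN libraries. Their share was 0.0266% to 0.0353% in PRO, 0.0392% to 0.0545% in MT_10%, 0.0153% to 0.0272% in MT_0.25%, 0.00893% to 0.0153% in MT_0.25%_SEN_CM and 0.00930% to 0.0122% in MT_0.25%_PRO_CM libraries. That the SEN libraries stood apart follows from how the 64 were chosen. By share of reads, MT_10% libraries came next and PRO libraries followed with a slight overlap with MT_0.25%. The shares in the groups with conditioned medium lay lowest and overlapped. This order depended on the measure. Without the 2 entries with the most reads in SEN, shares were 0.0120% to 0.0143% in PRO and 0.0109% to 0.0197% in MT_0.25%. Summed as normalised reads, the 64 held 18057 to 22245 in PRO and 13893 to 17269.5 in MT_10%.

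**Figure D1:**
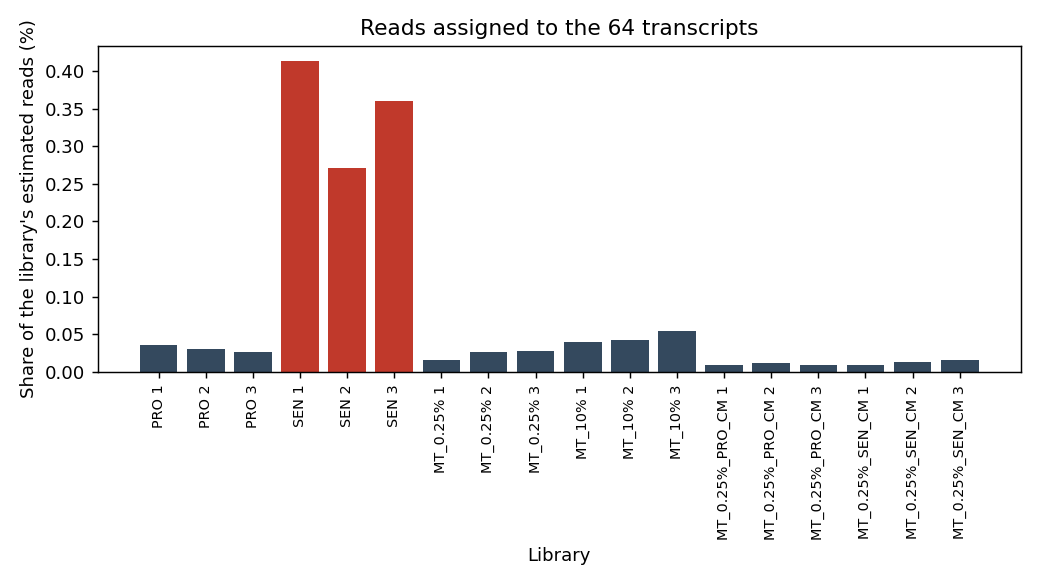
Share of each library's estimated reads assigned to the 64 transcripts, as 1 bar per library, in percent. The 3 SEN bars (red) reach 0.272% to 0.413%, and the highest bar of another group, MT_10% 3, reaches 0.0545%.

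SEN means ran from 104 to 26707 normalised reads with a median of 538. The ratio of the SEN mean to the next highest group mean ran from 4.002 to 22.4 with a median of 5.12, and was at least 10 for 11 entries. Relative to PRO alone the ratio ran from 4.01 to 34.2, with a median of 6.76. The next highest group was PRO for 31 entries, MT_10% for 26, MT_0.25% for 6 and MT_0.25%_SEN_CM for 1.

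Outside SEN the 64 transcripts were not at one level. As a percentage of the SEN mean, their median was 14.8% in PRO, 14.3% in MT_10%, 7.99% in MT_0.25%, 5.88% in MT_0.25%_SEN_CM and 5.09% in MT_0.25%_PRO_CM. MT_0.25%_PRO_CM was the lowest group for 38 entries and MT_0.25%_SEN_CM for 18. Less than 5% of the SEN level was found for 32 entries in MT_0.25%_PRO_CM, for 26 in MT_0.25%_SEN_CM, for 21 in MT_0.25%, for 7 in MT_10% and for 3 in PRO. At least 1 of the 15 other libraries held no read for 9 entries.

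**Figure D2:**
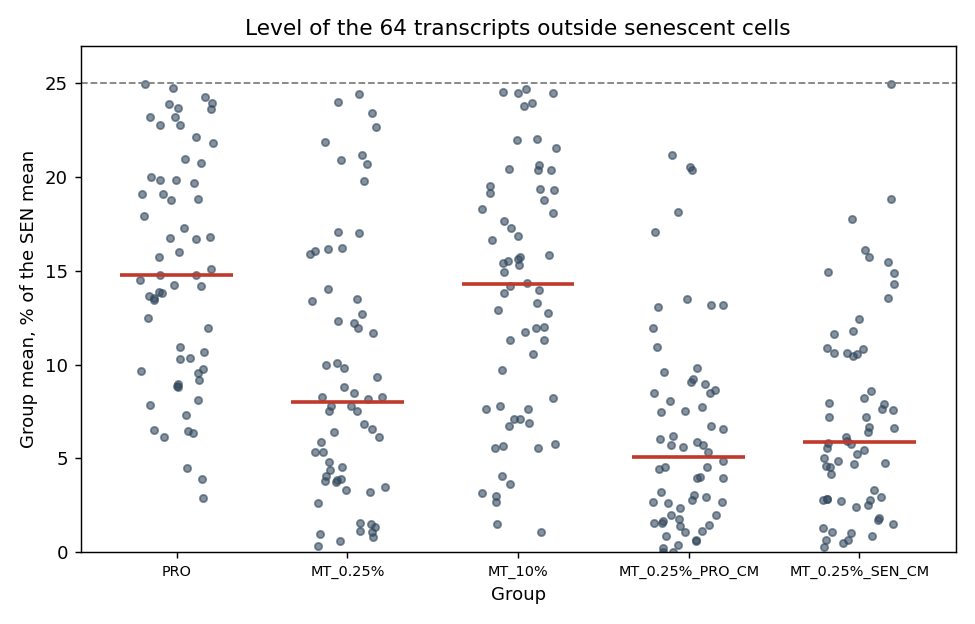
Mean level of each of the 64 transcripts in the 5 groups other than SEN, as a percentage of its SEN mean. Each point is 1 transcript, the red line is the median (14.8% in PRO, 5.09% in MT_0.25%_PRO_CM), and the dashed line at 25% is the limit that the choice of entries set.

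Within the SEN group, library SEN 2 was the lowest of the 3 for 47 of the 64 entries (73.4%), and over all 12962 entries with a SEN mean of at least 100 it was the lowest for 48.6%. The coefficient of variation between SEN libraries ran from 1.99% to 61.4% with a median of 23.8%, beside a median of 15.9% over those 12962 entries. The entries with the widest spread were paraxial protocadherin at 178, 60.5 and 74.6 normalised reads, a transcript close to dUTPase at 283, 77.2 and 338, and comp2944581_c0_seq1, without a hit, at 599.5, 172 and 384. SEN 2 was the lowest library in all of these. As the choice required, each remained above the highest of the other 15 libraries, which reached 10.8, 65.8 and 29.6.

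Closest to the 4-fold limit among the 64 were comp23186_c1_seq1 and comp2262783_c0_seq1, with ratios of 4.002 and 4.007. Just outside were comp168376_c0_seq3, with an uncharacterised hit, at a ratio of 3.991, and comp170138_c0_seq2, with a hit known only by a locus number, at 3.989. The SEN libraries held 117, 90.7 and 114 normalised reads of the former and 1041, 776 and 1167 of the latter. The largest ratios belonged to comp51661_c0_seq1, an uncharacterised fragment with a hit in the opossum, and to comp2944581_c0_seq1. comp51661_c0_seq1 had 436, 344 and 413 normalised reads in SEN, 14.8, 17.1 and 21.4 in PRO and 2.0 to 11.5 across the 12 myotube libraries. Its SEN libraries were even, and every other library lay far below them.

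Names come from the closest protein hit that the study lists, mostly in another species, so they mark similarity and not an established newt orthologue. An informative hit was listed for 23 of the 64 entries (35.9%), an uncharacterised one for 22, no hit for 18, and 1 entry (comp23186_c1_seq1) is in neither name table. Of 3538 entries with a row in those tables, 34.0% had an informative hit. No reference sequence was at hand, so no sequence or position is given. Estimated counts scale with transcript length, and the deposited length of an entry changed between libraries for 43 of the 64, so levels are not ranked between genes by read count alone. Changing lengths are no trait of the 64, since 32.8% of them had 1 length in every library, beside 25.6% of all entries. In TPM, which divides by that length, SEN means ran from 0.916 to 851 among the 64. Transcripts with an informative hit had a median SEN mean of 376 normalised reads, those with an uncharacterised hit 639 and those without a hit 528, and the ranges overlapped.

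Changes between groups other than SEN were tested with the quasi-likelihood test of edgeR on the counts of all entries (Benjamini-Hochberg adjustment). Beside each change it called, the value in brackets also gives any other fit that kept every library but ended the call or turned its sign, mostly limma on log2(TPM + 1) or, after centring, on the same values with each library centred on its median. Counts depend on transcript length and TPM values do not, and 8 of the 64 were under 4-fold above the next group in TPM, where the ratio ran from 1.24 to 40.3 with a median of 6.001. Among these 8 were comp30168_c1_seq28 at 1.24, G protein-coupled receptor 22 at 2.40, the dUTPase-like transcript at 2.63, comp3766020_c0_seq1 at 2.89 and comp43597_c0_seq9 at 3.35. The 1 added to TPM also shrinks changes of entries under 1 TPM, and centring shifts every entry of a library by the same amount. For such entries a weak or opposite change in these fits decides nothing.

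The 10 entries with the most reads in SEN were mostly of unknown function. The first, comp47234_c0_seq1, has an uncharacterised hit in the frog Xenopus tropicalis and held 24585, 25795 and 29742 normalised reads in SEN, 6085, 8152 and 4762 in PRO and 2470.3, 2000.1 and 3337 in MT_10%. MT_0.25% libraries held 159, 285 and 218, those of MT_0.25%_SEN_CM 251, 419 and 362 and those of MT_0.25%_PRO_CM 139.7, 102 and 62.4. Its levels in PRO and MT_10% did not overlap with each other or with the other myotube libraries.

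The second, comp43597_c0_seq9, has no hit and held 28743, 14004 and 23346 normalised reads in SEN, 6369, 5517 and 3720.5 in PRO and 889 to 3906 in myotubes. SEN 2 was the lowest SEN library here and lay above every PRO library, as the choice required. comp1908678_c0_seq1, with an uncharacterised human hit, held 7824, 6634 and 10622 in SEN, 982, 1224 and 1259 in MT_10%, 619.7, 667 and 682 in PRO and 192 to 509.9 in the other myotubes. Its MT_10% libraries thus stood above its PRO libraries.

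Next came comp117129_c0_seq2 at 5791 ± 1266 (SD, n = 3) normalised reads in SEN and comp22665_c0_seq2 at 3835 ± 1121, both with uncharacterised hits. TM7SF3 (comp25612_c0_seq2), a membrane protein with 7 spans, held 4301, 2824 and 3130.1 in SEN, 632, 728 and 567 in PRO and 261 to 678 in myotubes. It is the only one of the 10 with an informative hit. The SEN means of the others were 2348 ± 467 for comp628494_c0_seq1, without a hit, 2315 ± 100.3 for comp63968_c0_seq4, 2194 ± 621 for comp30168_c1_seq28, which has a zebrafish clone name, and 2051 ± 387 for comp1252957_c0_seq1, without a hit. comp63968_c0_seq4 was nearly equal in the 3 SEN libraries, at 2380.1, 2366 and 2200, and comp30168_c1_seq28 held 153 to 289 in the other 15 libraries. In TPM, comp30168_c1_seq28 had a mean of 16.9 in SEN, 13.6 in MT_0.25% and 1.76 in PRO, a ratio to the next group of 1.24, the smallest of the 64.

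**Figure D3:**
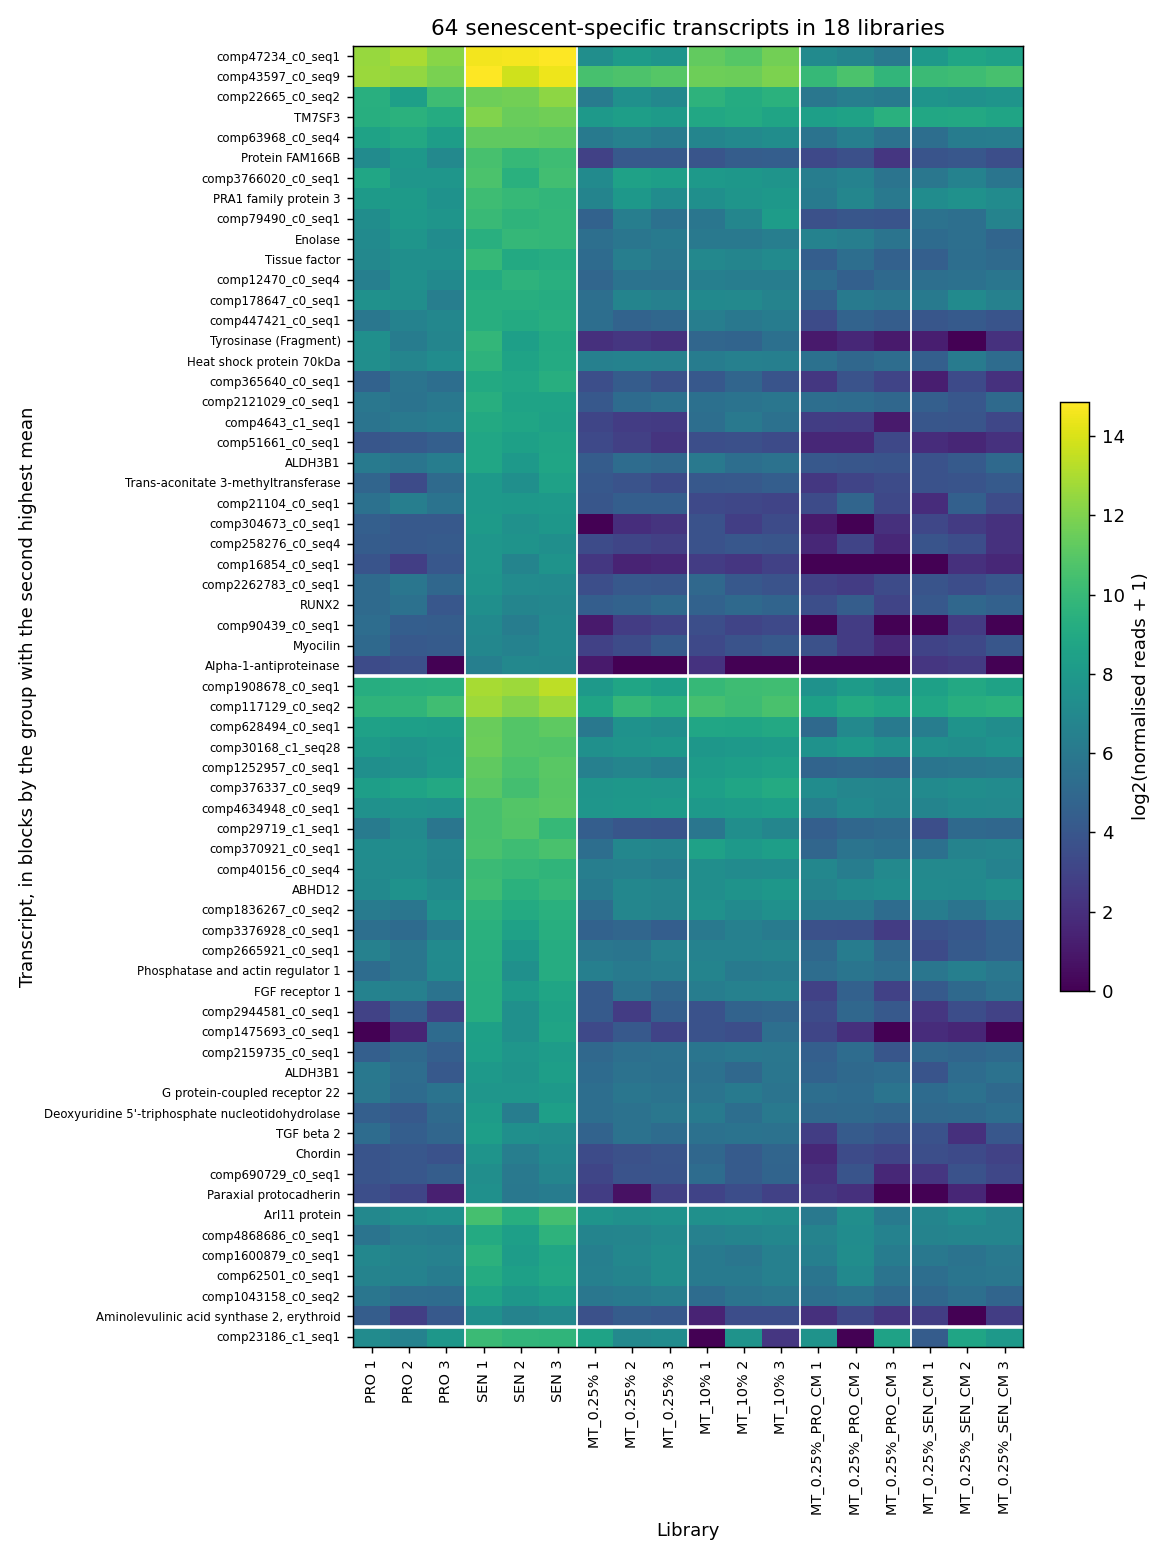
Normalised reads of the 64 transcripts in the 18 libraries on a log2(reads + 1) colour scale. Rows are grouped by the group with the second highest mean (from the top: PRO 31 rows, MT_10% 26, MT_0.25% 6, MT_0.25%_SEN_CM 1) and ordered by SEN mean within a block, and the 3 SEN columns are the brightest of every row.

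Secreted signals were represented by transforming growth factor beta 2 (TGFB2), a ligand that restrains growth and promotes matrix deposition, and by chordin, a secreted antagonist that binds bone morphogenetic proteins. TGFB2 held 321, 170 and 155 normalised reads in SEN, 46.2, 48.9 and 47.0 in MT_10%, 25.8, 46.9 and 37.6 in MT_0.25% and 37.6, 20.9 and 29.0 in PRO. It was lowest with conditioned medium, at 5.4, 17.9 and 13.7 when from PRO (MT_0.25%_PRO_CM) and 12.2, 3.1 and 15.6 when from SEN (MT_0.25%_SEN_CM), and the latter fell below every MT_0.25% library (log2 fold change -1.90 ± 0.46 SE, adjusted p = 0.00367, beside 0.19 with adjusted p = 0.371 after centring). Its mean TPM was 0.688 in MT_0.25% and 0.110 in MT_0.25%_SEN_CM, a level at which the centred fit cannot decide the direction. On log2(TPM + 1) in limma its change was -0.59 (adjusted p = 0.017), near the median of -0.55 over all entries in that fit. The 1 added to TPM shrinks changes at this level, so setting its change beside that median decides nothing about its fall. Chordin held 204, 81.3 and 132 in SEN, 30.2, 18.2 and 27.9 in MT_10%, 13.4, 15.2 and 12.2 in PRO and 2.1 to 13.9 in the other myotubes. Its mean TPM was 0.154 in MT_10% and 0.0815 in MT_0.25%, far below the 1 added to TPM, which shrinks its change in limma. Chordin was higher in MT_10% than in MT_0.25% without overlap (log2 fold change 1.06 ± 0.39 SE, adjusted p = 0.0341, beside 0.09 with adjusted p = 0.562 on log2(TPM + 1) and 0.35 with adjusted p = 0.0874 after centring), a call lost without MT_0.25% 1, MT_0.25% 2, MT_0.25% 3, MT_10% 1 or MT_10% 3 (adjusted p = 0.0589 to 0.104).

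Both coagulation and protease control had a member. Tissue factor, the membrane receptor that starts coagulation by binding factor VII, has a hit in the same newt species. It held 998, 529 and 588 normalised reads in SEN, 122, 169 and 169.6 in PRO, 121, 109 and 135 in MT_10% and 35.4, 82.0 and 57.9 in MT_0.25%. PRO and MT_10% overlapped, and both lay above MT_0.25%. Tissue factor was lower in MT_0.25% than in PRO (log2 fold change -1.27 ± 0.31 SE, adjusted p = 0.001, beside 0.02 with adjusted p = 0.947 on log2(TPM + 1)) and higher in MT_10% than in MT_0.25% (log2 fold change 1.05 ± 0.30 SE, adjusted p = 0.00932, beside 0.35 with adjusted p = 0.228 on log2(TPM + 1)). Alpha-1-antiproteinase, an inhibitor of serine proteases, was scarce outside SEN, with 84.2, 119.9 and 119 in SEN, 9.4, 11.4 and 0 in PRO and 0 to 5.1 in the 12 myotube libraries, of which 8 held none. Its 3 MT_0.25%_PRO_CM libraries were all at 0, so its fitted changes among myotubes are not given.

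Myocilin, a secreted glycoprotein of the extracellular matrix, held 116, 94.9 and 130.4 normalised reads in SEN, 32.3, 17.1 and 18.3 in PRO and 2.1 to 17.7 in myotubes. It was called in none of the 4 comparisons below. Paraxial protocadherin, an adhesion molecule that guides cell movements of paraxial mesoderm in frog embryos, held 0 to 10.8 outside SEN and was not called either. Both held few reads outside SEN, which limits what the tests between the other groups could detect.

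Fibroblast growth factor receptor 1 (FGFR1), a receptor tyrosine kinase for FGF ligands, has its closest hit in the newt Pleurodeles waltl. It held 600.3, 271 and 423 normalised reads in SEN, 78.3, 91.1 and 94.8 in MT_10%, 94.1, 89.3 and 48.9 in PRO, 17.2, 49.8 and 30.6 in MT_0.25%, 17.6, 32.7 and 47.8 in MT_0.25%_SEN_CM and 6.4, 23.2 and 6.3 in MT_0.25%_PRO_CM. PRO and MT_10% overlapped and the other myotubes were lower, apart from MT_0.25% 2, which slightly exceeded PRO 3. FGFR1 was higher in MT_10% than in MT_0.25% (log2 fold change 1.42 ± 0.41 SE, adjusted p = 0.00933, beside 1.14 with adjusted p = 0.068 on log2(TPM + 1)), and the fall from PRO to MT_0.25% (log2 fold change -1.13 ± 0.42 SE, adjusted p = 0.0225, beside 0.03 with adjusted p = 0.952 on log2(TPM + 1)) was lost without PRO 1, PRO 2, MT_0.25% 1 or MT_0.25% 3 (adjusted p = 0.0598 to 0.0971).

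Of the other signalling entries, G protein-coupled receptor 22, an orphan receptor, was the most even, with 226, 225 and 251 normalised reads in SEN and 32.3 to 69.3 in the other 15 libraries. Phosphatase and actin regulator 1, which binds actin and protein phosphatase 1, varied most, with 639, 178 and 582 in SEN and 37.6 to 131 elsewhere. Its SEN 2 library came nearest to PRO 3, the highest library outside SEN. RUNX2, the transcription factor that directs bone formation in mammals, held 167, 107 and 115 in SEN, 33.6, 45.6 and 15.3 in PRO and 7.4 to 32.8 in myotubes. None of these was called by edgeR in any of the 4 comparisons.

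Proteins of membranes and small GTPase traffic included PRA1 family protein 3, which in mammals resides in the endoplasmic reticulum and binds an ARF-like GTPase partner, and ARL11, an ARF-like GTPase. PRA1 family protein 3 held 1191, 978 and 878 normalised reads in SEN, 269, 268 and 191 in PRO and 64.5 to 243 in myotubes. ARL11, named after its values were seen, held 1397, 631 and 1362 in SEN. MT_0.25% libraries held 208, 176 and 192 and the remaining groups 62.3 to 182. For ARL11, unlike most entries, MT_0.25% was the next highest group.

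Several named transcripts encode enzymes. ABHD12, a lipase that in mammals hydrolyses monoacylglycerols and lysophosphatidylserine, held 1207, 728 and 966 normalised reads in SEN, 162, 195 and 234 in MT_10%, 133, 186 and 138 in PRO and 67.6 to 160.2 in the other myotubes. It was higher in MT_10% than in MT_0.25% (log2 fold change 1.05 ± 0.24 SE, adjusted p = 0.00208, beside 0.42 with adjusted p = 0.234 on log2(TPM + 1)). Tyrosinase, the rate-limiting enzyme of melanin synthesis, with a hit in the newt Cynops pyrrhogaster, held 902, 339 and 526 in SEN, 169, 76.0 and 108 in PRO, 28.5, 26.6 and 43.0 in MT_10% and 0 to 4.1 in the other 9 libraries. Its groups fell in the order SEN, PRO, MT_10% and the other myotubes without overlap.

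Aldehyde dehydrogenase 3B1, which oxidises aldehydes from lipid peroxidation in mammals, was the closest hit of 2 of the 64 entries, and the reads of such alike entries may be split between them. The first, comp17245_c1_seq9, held 444, 264 and 421 normalised reads in SEN, 65.9, 53.2 and 76.4 in PRO and 12.2 to 62.2 in myotubes. The second, comp23978_c0_seq4, held 257, 209.6 and 322 in SEN, 61.8, 38.0 and 16.8 in PRO and 13.5 to 55.8 in myotubes. The first was lower in MT_0.25% than in PRO (log2 fold change -1.04 ± 0.32 SE, adjusted p = 0.00623, beside 0.11 with adjusted p = 0.583 on log2(TPM + 1)). The second was not called there by edgeR (log2 fold change 0.19 ± 0.40 SE, adjusted p = 0.685, beside 0.51 with adjusted p = 0.0169 on log2(TPM + 1)). The difference between the entries was not tested. No other entry with a listed name shared this hit.

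A 70 kDa heat shock protein, a chaperone that binds unfolded proteins, held 788, 398 and 546 normalised reads in SEN, 160, 108 and 147 in PRO, 88.0, 96.1 and 91.2 in MT_0.25% and 74.7, 88.5 and 82.8 in MT_10%. With conditioned medium, MT_0.25%_PRO_CM held 45.1, 29.6 and 39.1 and MT_0.25%_SEN_CM 21.6, 72.6 and 37.8. The latter fell below MT_0.25% (log2 fold change -1.06 ± 0.32 SE, adjusted p = 0.0144, beside -0.50 with adjusted p = 0.075 after centring), a call lost without MT_0.25%_SEN_CM 1 or MT_0.25%_SEN_CM 3 (adjusted p = 0.0522 to 0.0915). FAM166B, a protein of ciliary microtubules, held 1469, 977 and 1227 in SEN, 142, 238 and 128 in PRO and 4.2 to 20.7 in all 12 myotube libraries, which none of the PRO or SEN libraries overlapped. ALAS2, the erythroid enzyme that starts haem synthesis, named after its values were seen, held 172, 99.1 and 128 in SEN and 0 to 20.2 elsewhere. Trans-aconitate 3-methyltransferase, also named after its values were seen, held 261, 167 and 368 in SEN and 4.3 to 33.6 elsewhere and was called in none of the 4 comparisons.

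**Figure D4:**
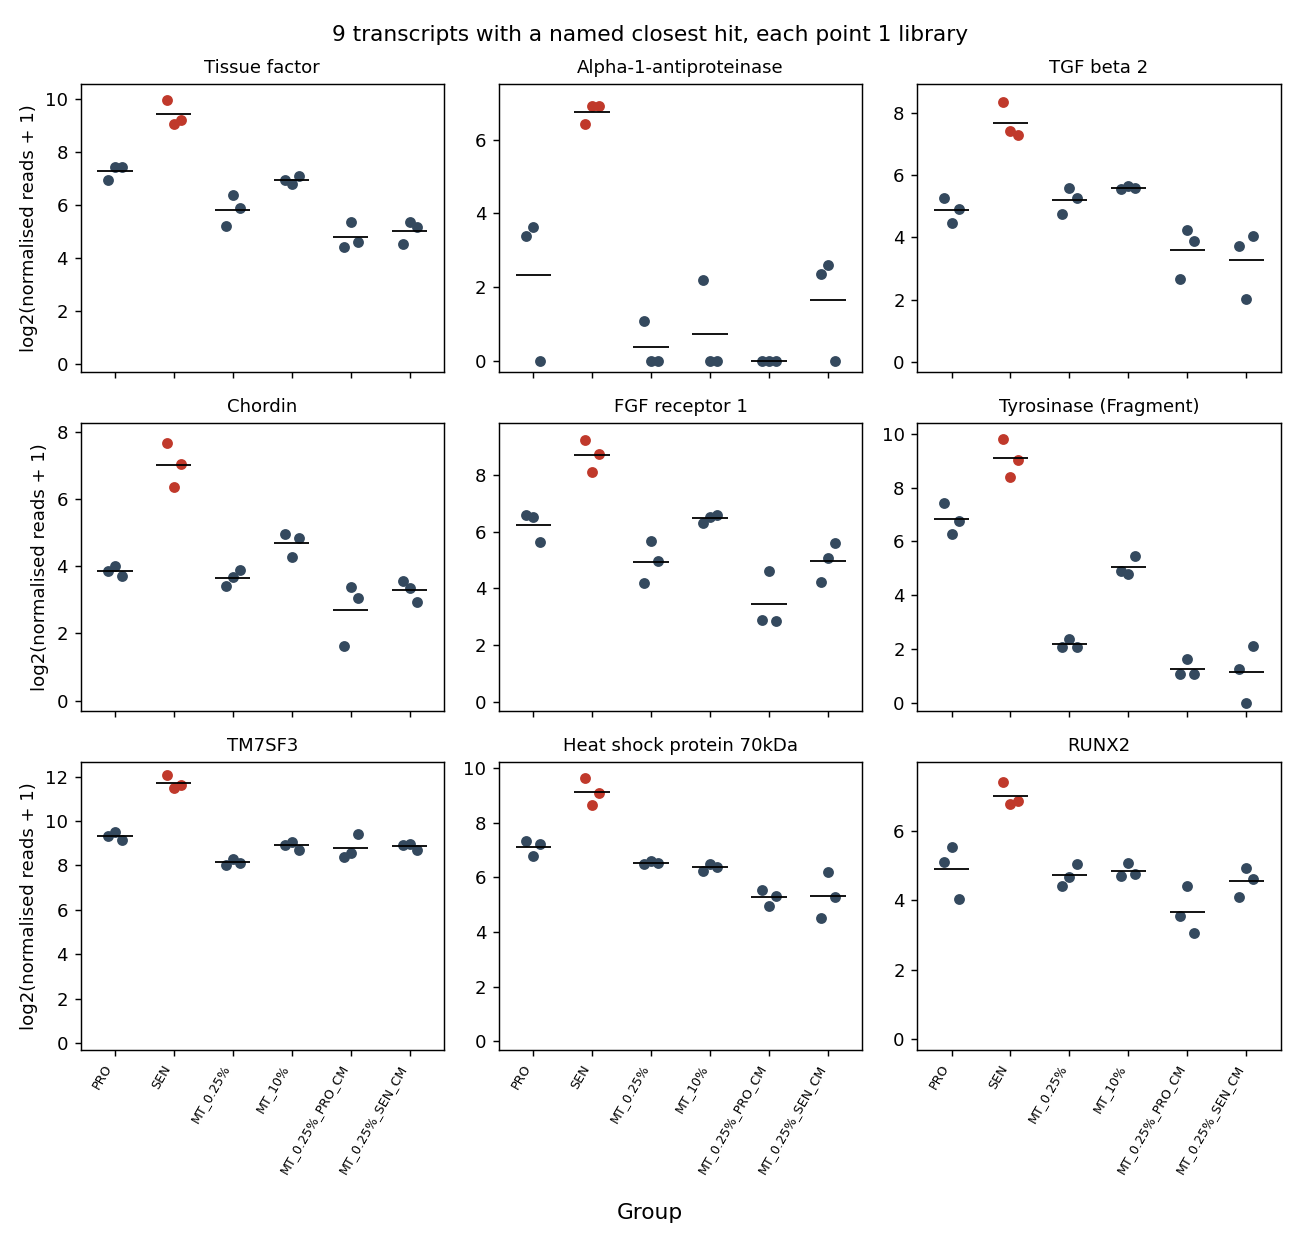
Normalised reads of 9 of the transcripts with a named closest hit by group, on a log2(reads + 1) axis. Each point is 1 library, lines are the means of the 3 log2 values, and the SEN points (red) lie above every other point, as tyrosinase shows with 902, 339 and 526 reads in SEN and 0 to 4.1 in myotubes kept in 0.25% FCS.

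The remaining comparisons contain no SEN library, so the choice of the 64 fixed no direction in them, although all of their values lie below the SEN level by construction. Serum was examined first, by holding formed myotubes in 10% instead of 0.25% FCS. In MT_10%, 26 of the 64 transcripts were higher (40.6%, against a background of 20.0% of all 23107 entries) and 1 was lower (1.56%, against 20.0%), by edgeR. The changes called ran from 0.76 to 3.58 on the log2 scale with a median of 1.30, and the median over all 64 was 0.77, beside 0.03 over all entries. The groups did not overlap for 25 of the 26 and for the 1 that fell. Overlap was not counted over all entries called, so these counts cannot say whether it sets the 64 apart. Of the 26 rises, 6 belonged to transcripts with an informative hit, 13 to those with an uncharacterised hit and 7 to those without a hit.

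Among transcripts whose groups did not overlap and whose higher group averaged at least 20 normalised reads, a condition kept for each set of largest changes named here, the largest rises with serum belonged to comp47234_c0_seq1, tyrosinase and comp4643_c1_seq1. comp47234_c0_seq1 rose from 159, 285 and 218 to 2470.3, 2000.1 and 3337 normalised reads (log2 fold change 3.58 ± 0.31 SE, adjusted p = 9.94e-08). Tyrosinase rose from 3.2, 4.1 and 3.2 to 28.5, 26.6 and 43.0 (log2 fold change 3.20 ± 0.50 SE, adjusted p = 7.95e-05). comp4643_c1_seq1, with an uncharacterised frog hit, rose from 7.5, 5.3 and 4.8 to 40.9, 63.5 and 45.4 (log2 fold change 3.17 ± 0.34 SE, adjusted p = 1.25e-06). In each of the 3 the lowest MT_10% library lay several times above the highest MT_0.25% library, and MT_10% lay below SEN as the choice required.

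Of the other entries with the most reads in SEN, comp1908678_c0_seq1 rose with serum (log2 fold change 1.79 ± 0.23 SE, adjusted p = 8.31e-06), as did comp117129_c0_seq2 (log2 fold change 1.01 ± 0.27 SE, adjusted p = 0.00616, beside 0.00 with adjusted p = 0.994 on log2(TPM + 1) and 0.26 with adjusted p = 0.363 after centring), comp22665_c0_seq2 (log2 fold change 2.49 ± 0.35 SE, adjusted p = 2.92e-05) and comp1252957_c0_seq1 (log2 fold change 1.83 ± 0.20 SE, adjusted p = 1.18e-06). TM7SF3 rose as well (log2 fold change 0.77 ± 0.23 SE, adjusted p = 0.0124, beside 0.62 with adjusted p = 0.0877 on log2(TPM + 1)), a call lost without MT_10% 2 (adjusted p = 0.0544), and comp63968_c0_seq4 rose with a call lost without MT_0.25% 1, MT_0.25% 3 or MT_10% 3 (adjusted p = 0.0713 to 0.0956), beside 0.46 with adjusted p = 0.108 on log2(TPM + 1). The entry that fell was comp21104_c0_seq1, an uncharacterised fragment named because it was the only one, at 15.0, 20.5 and 20.9 in MT_0.25% and 8.9, 7.8 and 7.2 in MT_10% (log2 fold change -1.26 ± 0.47 SE, adjusted p = 0.0398), a call lost without MT_0.25% 2, MT_0.25% 3, MT_10% 1, MT_10% 2 or MT_10% 3 (adjusted p = 0.0656 to 0.115).

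Proliferation transcripts moved with this comparison. Their sum over the 17 of the study's list was 3913 to 7568 normalised reads in MT_0.25%, 25226 to 27175 in MT_10% and 37631 to 44240 in PRO libraries, and 17 of 17 were higher in MT_10%. The 12 transcripts listed as raised in senescence summed to 747 to 1086 in MT_0.25% and 1089 to 1391 in MT_10%, with 2 of 11 tested higher and 2 lower. The part that mononucleate cells left among the myotubes may have in the rise of the 64 was not tested. On log2(TPM + 1) values in limma, where the median of all entries moved to -0.13, 10 of the 64 rose and 4 fell (2222 and 6108 of all 23107 entries), and calls over all entries shifted from 50.1% higher to 26.7% higher. After each library was centred on its median, 26 rose and 3 fell (5572 and 4141 of all entries), and 22 of the 26 called in edgeR were called again. In both limma fits 1 of the 26 turned sign, comp43597_c0_seq9, which had a log2 fold change of 0.97 in edgeR. It was called lower on log2(TPM + 1) (-0.79, adjusted p = 0.0358) and was at -0.53 after centring (adjusted p = 0.0784). Its mean TPM was 71.2 in MT_0.25% and 41.4 in MT_10%.

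Myotubes in 0.25% FCS were next compared with proliferating cells. The 64 were lower in myotubes in 31 cases (48.4%, against 31.7% of all entries) and higher in 5 (7.81%, against 38.0%). Called falls ran from -0.63 to -4.95 on the log2 scale with a median of -1.49, and the median over all 64 was -0.76, beside 0.20 over all entries. PRO and myotubes also differed in day of collection, serum, filtering and RNA kit, and these cannot be told apart from fusion. All 17 proliferation transcripts were lower in MT_0.25%, from sums of 37631 to 44240 normalised reads in PRO to 3913 to 7568, and their part in the falls was not tested. Of the 31 falls, 8 belonged to transcripts with an informative hit and 17 to those with an uncharacterised one.

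The largest falls were those of tyrosinase (log2 fold change -4.95 ± 0.47 SE, adjusted p = 1.42e-08), comp47234_c0_seq1 (log2 fold change -4.75 ± 0.32 SE, adjusted p = 9.53e-11) and FAM166B (log2 fold change -3.48 ± 0.31 SE, adjusted p = 6.05e-09). Tyrosinase went from 169, 76.0 and 108 normalised reads in PRO to 3.2, 4.1 and 3.2 in MT_0.25%, and FAM166B from 142, 238 and 128 to 6.4, 17.0 and 16.6. For these transcripts the next highest level after SEN was that of PRO, and FAM166B was not called with serum (log2 fold change 0.44 ± 0.35 SE, adjusted p = 0.326), where tyrosinase and comp47234_c0_seq1 rose.

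The 5 rises ran from 0.47 to 1.11 on the log2 scale. They included a transcript close to dUTPase, which removes dUTP from the nucleotide pool and whose listed hit is in the amoeba Entamoeba histolytica, at 21.5, 17.1 and 33.6 in PRO and 40.8, 47.5 and 59.5 in MT_0.25% (log2 fold change 1.11 ± 0.42 SE, adjusted p = 0.0246, beside 0.50 with adjusted p = 0.088 after centring), a call lost without PRO 1, PRO 2 or MT_0.25% 3 (adjusted p = 0.0731 to 0.0945). comp4868686_c0_seq1, without a hit, went from 52.4, 79.8 and 74.9 to 102, 108 and 136 (log2 fold change 0.84 ± 0.27 SE, adjusted p = 0.00925, beside 0.35 with adjusted p = 0.152 after centring), a call lost without PRO 1 (adjusted p = 0.0552). comp1043158_c0_seq2, also without a hit, went from 56.5, 38.0 and 36.7 to 59.0, 66.8 and 80.5 (log2 fold change 0.72 ± 0.28 SE, adjusted p = 0.0268, beside 0.08 with adjusted p = 0.755 after centring), a call lost without PRO 2, PRO 3 or MT_0.25% 3 (adjusted p = 0.0908 to 0.112). Lack of overlap was a condition for naming these 3. With RLE scaling or DESeq2, 3 rises were called, and the count was 1 without PRO 1 or MT_0.25% 3, 2 without PRO 2, and 3 without PRO 3 or MT_0.25% 2.

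This comparison depended on the unit. On log2(TPM + 1) the median of all entries rose to 0.76, 89.2% of all calls were higher in MT_0.25% (54.5% in edgeR), and of the 64 transcripts 22 rose and 6 fell (15527 and 1878 of all 23107 entries). Of the 31 falls called in edgeR, 6 were called there and 17 changed sign, and 5 of those 17 were called as rises. Among the 5 were comp43597_c0_seq9 (log2 fold change -1.53 ± 0.27 SE, adjusted p = 4.42e-05, beside 1.57 with adjusted p = 9.3e-05 on log2(TPM + 1) and 0.31 with adjusted p = 0.243 after centring) and the enolase-like transcript (log2 fold change -1.48 ± 0.26 SE, adjusted p = 3.41e-05, beside 0.93 with adjusted p = 0.00144 on log2(TPM + 1) and -0.32 with adjusted p = 0.0757 after centring). Tissue factor, FGFR1, comp17245_c1_seq9, comp1908678_c0_seq1, comp628494_c0_seq1, comp1252957_c0_seq1 and comp2262783_c0_seq1 turned sign without a call. Once the libraries were centred, 28 of the 31 were called again and 2 had the opposite sign. In that fit 45 of the 64 fell and 1 rose (12407 and 4173 of all 23107 entries), and 25.2% of all calls were higher in MT_0.25%. Falls were thus common over all entries, so the 28 called again say little about the 64 in particular.

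**Figure D5:**
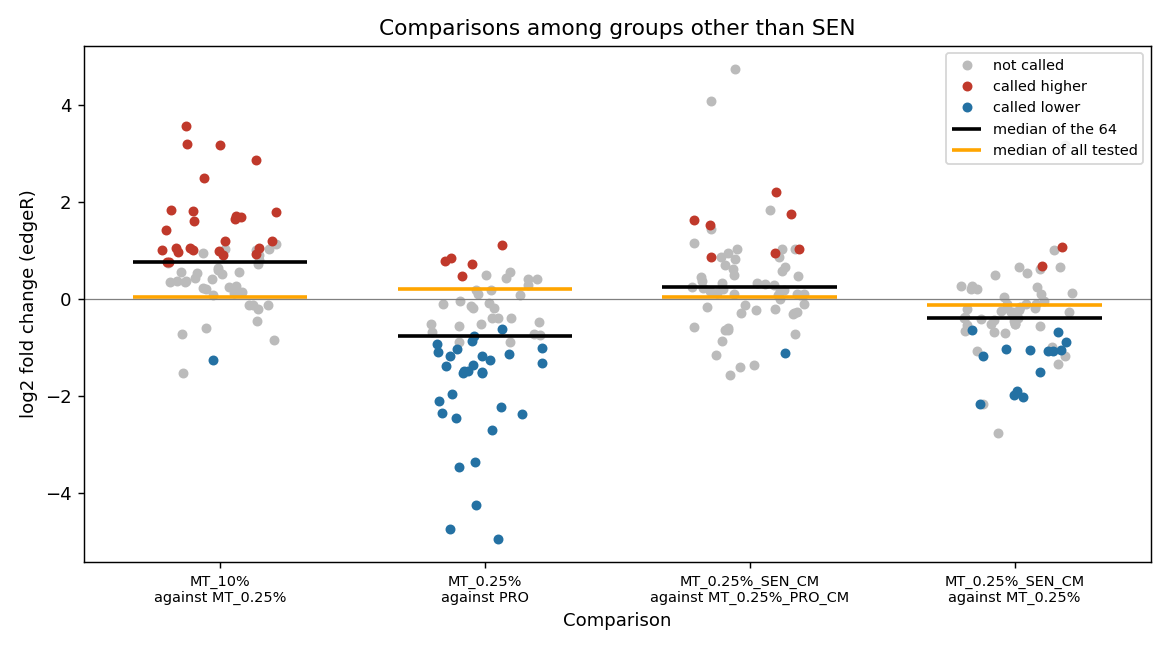
Fitted log2 fold changes of the 64 transcripts in the 4 comparisons without SEN libraries, from edgeR. Red and blue points passed an adjusted p of 0.05 as higher and lower, grey points did not, black lines are the median of the 64 (0.77, -0.76, 0.24 and -0.39 from left to right) and orange lines that of all 23107 entries (0.03, 0.20, 0.03 and -0.13).

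Medium conditioned by senescent cells was then compared with medium conditioned by proliferating cells. With the former, 7 of the 64 transcripts were higher in myotubes (10.9%, against 3.00% of all entries) and 1 was lower (1.56%, against 5.34%). The groups did not overlap for any of the 8, which was not counted over all entries called. Called rises ran from 0.86 to 2.21 on the log2 scale with a median of 1.53. The median over all 64 was 0.24, beside 0.03 over all entries, and 56 were not called. The count of rises was 4 without MT_0.25%_SEN_CM 2 or MT_0.25%_PRO_CM 3, and 3 when MT_0.25%_PRO_CM 1 was left out. Without 2 transcripts whose MT_0.25%_PRO_CM libraries were all at 0, the median was 0.22.

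The largest rises were those of comp79490_c0_seq1, comp47234_c0_seq1 and comp22665_c0_seq2, all with uncharacterised hits. comp79490_c0_seq1 held 11.8, 14.8 and 13.7 normalised reads with medium from PRO and 47.3, 41.9 and 99.0 with medium from SEN (log2 fold change 2.21 ± 0.56 SE, adjusted p = 0.0186, beside 0.63 with adjusted p = 0.316 on log2(TPM + 1)), a call lost without MT_0.25%_PRO_CM 1, MT_0.25%_PRO_CM 2 or MT_0.25%_SEN_CM 3 (adjusted p = 0.0592 to 0.0876). comp47234_c0_seq1 held 139.7, 102 and 62.4 and 251, 419 and 362 (log2 fold change 1.76 ± 0.30 SE, adjusted p = 0.00175, beside 0.71 with adjusted p = 0.185 on log2(TPM + 1)). comp22665_c0_seq2 held 59.1, 80.2 and 67.7 and 208, 183 and 209 (log2 fold change 1.53 ± 0.37 SE, adjusted p = 0.0137, beside 0.31 with adjusted p = 0.604 on log2(TPM + 1) and 0.68 with adjusted p = 0.122 after centring), a call lost without MT_0.25%_PRO_CM 1 (adjusted p = 0.0514). The groups did not overlap in any of these, and the MT_0.25%_SEN_CM levels were a small part of the SEN levels.

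comp1252957_c0_seq1 rose as well, from 26.9, 30.6 and 27.5 to 52.7, 59.3 and 63.4 (log2 fold change 1.04 ± 0.23 SE, adjusted p = 0.00918, beside 0.97 with adjusted p = 0.0711 in the 2 groups alone and 0.53 with adjusted p = 0.207 on log2(TPM + 1)), and comp1908678_c0_seq1 rose by 0.86 ± 0.23 (SE) with a call lost without MT_0.25%_PRO_CM 1, MT_0.25%_PRO_CM 3 or MT_0.25%_SEN_CM 2 (adjusted p = 0.0668 to 0.147), beside 0.53 with adjusted p = 0.287 on log2(TPM + 1). PRA1 family protein 3 went from 69.8, 111 and 64.5 to 149.9, 179.9 and 142 (log2 fold change 0.94 ± 0.28 SE, adjusted p = 0.0431, beside 0.86 with adjusted p = 0.0666 in the 2 groups alone and 0.19 with adjusted p = 0.587 on log2(TPM + 1)), and this call was lost without MT_0.25%_PRO_CM 1, MT_0.25%_PRO_CM 3, MT_0.25%_SEN_CM 1, MT_0.25%_SEN_CM 2 or MT_0.25%_SEN_CM 3 (adjusted p = 0.0606 to 0.165). The seventh, comp4643_c1_seq1, went from 5.4, 5.3 and 1.1 to 14.9, 14.3 and 7.8 with a call lost without MT_0.25%_PRO_CM 2, MT_0.25%_PRO_CM 3, MT_0.25%_SEN_CM 1 or MT_0.25%_SEN_CM 2 (adjusted p = 0.0597 to 0.145), beside 0.15 with adjusted p = 0.597 on log2(TPM + 1) and 0.52 with adjusted p = 0.0754 after centring. The transcript that fell has its closest hit, enolase, a glycolytic enzyme, in the parasite Cryptosporidium muris. MT_0.25%_PRO_CM held 96.7, 81.3 and 50.7 of it and MT_0.25%_SEN_CM 35.1, 42.9 and 27.8 (log2 fold change -1.11 ± 0.28 SE, adjusted p = 0.0176, beside -0.58 with adjusted p = 0.113 on log2(TPM + 1) and -0.21 with adjusted p = 0.364 after centring), a call lost without MT_0.25%_PRO_CM 1, MT_0.25%_PRO_CM 2, MT_0.25%_SEN_CM 1 or MT_0.25%_SEN_CM 3 (adjusted p = 0.0523 to 0.0832).

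Proliferation transcripts moved here too, from sums of 3681 to 4183 normalised reads in MT_0.25%_PRO_CM to 8172 to 9538 in MT_0.25%_SEN_CM, with 11 of 17 called higher. The part of remaining mononucleate cells in the 7 rises was not tested. On log2(TPM + 1), where 4.41% of all calls were higher instead of 36.0%, limma called 0 of the 64 higher (1 at an unadjusted p under 0.05) and 0 lower (5 unadjusted). Of all 23107 entries it called 92 higher and 1995 lower, and after centring 904 and 920. After centring limma called 8 of the 64 higher, 5 of the 7 among them, and 0 lower, of which 0 passed unadjusted, whereas DESeq2 called 2 lower. A fit of these 2 groups alone, in which 46 of the 64 passed the filter, called 4 higher and 1 lower (586 and 1242 of all 20913 entries).

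Against fresh 0.25% FCS, 14 of the 64 were lower with medium from senescent cells (21.9%, against 19.2% of all entries) and 2 were higher (3.12%, against 18.6%). This share of falls was near the background, and that of rises was below it, and 9 fell without MT_0.25%_SEN_CM 1. The median over all 64 was -0.39, beside -0.13 over all entries. The MT_0.25% libraries also served in the serum and PRO comparisons, so these comparisons share them. Proliferation transcripts were higher with medium from senescent cells in 8 of 17 cases.

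The largest falls were those of comp2665921_c0_seq1 and comp3766020_c0_seq1, both without a hit, and of TGFB2. comp2665921_c0_seq1 held 59.0, 53.9 and 91.2 normalised reads in MT_0.25% and 9.5, 17.4 and 23.4 in MT_0.25%_SEN_CM (log2 fold change -2.02 ± 0.45 SE, adjusted p = 0.00196, beside -0.11 with adjusted p = 0.713 after centring). comp3766020_c0_seq1 held 137, 355 and 315 and 59.4, 94.0 and 53.4 (log2 fold change -1.99 ± 0.37 SE, adjusted p = 0.000587, beside -0.43 with adjusted p = 0.116 after centring), and with medium from proliferating cells it held 76.3, 94.0 and 51.8, which overlapped the latter. Tissue factor fell too (log2 fold change -0.90 ± 0.33 SE, adjusted p = 0.0383, beside 0.25 with adjusted p = 0.248 after centring), a call lost without MT_0.25% 2, MT_0.25% 3, MT_0.25%_SEN_CM 1 or MT_0.25%_SEN_CM 3 (adjusted p = 0.0652 to 0.222). Its mean TPM was 0.895 in MT_0.25% and 0.289 in MT_0.25%_SEN_CM, where the centred fit cannot decide the direction. On log2(TPM + 1) in limma its change was -0.54 (adjusted p = 0.0436), beside a median of -0.55 over all entries. Here too the 1 added to TPM shrinks the change, so that median decides nothing about its fall.

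The 2 rises were TM7SF3 (log2 fold change 0.68 ± 0.23 SE, adjusted p = 0.0271, beside 0.02 with adjusted p = 0.949 on log2(TPM + 1)), a call lost without MT_0.25% 1, MT_0.25% 3, MT_0.25%_SEN_CM 1 or MT_0.25%_SEN_CM 2 (adjusted p = 0.0522 to 0.0943), and comp4643_c1_seq1 (log2 fold change 1.08 ± 0.41 SE, adjusted p = 0.0413, beside 0.04 with adjusted p = 0.854 on log2(TPM + 1)), a call lost without MT_0.25% 2, MT_0.25% 3, MT_0.25%_SEN_CM 1 or MT_0.25%_SEN_CM 2 (adjusted p = 0.097 to 0.152). TM7SF3 went from 261, 315 and 274 to 477, 499.7 and 416 and held 328, 380.1 and 678 with medium from proliferating cells. The 3 libraries of MT_0.25%_SEN_CM lay within the range of those of MT_0.25%_PRO_CM. In this comparison the split of all calls moved from 49.2% higher in edgeR to 6.57% on log2(TPM + 1), where 25 of the 64 fell and 0 rose (0 at an unadjusted p under 0.05), and to 75.4% after centring, where 8 fell and 25 rose. Of all 23107 entries, 13732 fell and 965 rose on log2(TPM + 1), and 2660 fell and 8161 rose after centring. Of the 14 falls, 13 and 6 were called again in these fits, and 4 changed sign after centring. All of these 4 had a mean TPM under 1 in MT_0.25%_SEN_CM, where the centred fit cannot decide the direction.

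Across the 4 comparisons, 14 of the 64 transcripts (21.9%, against 16.8% of all entries) were called in none by edgeR, among them RUNX2, G protein-coupled receptor 22, phosphatase and actin regulator 1, myocilin and paraxial protocadherin. Of these 14, limma called 8 in none of the comparisons on log2(TPM + 1) and 4 after centring. RUNX2, myocilin and paraxial protocadherin were called in none on log2(TPM + 1) and in 2 comparisons each after centring. Their mean TPM was under 1 in every group outside SEN, where the shift from centring alone can give a call. On log2(TPM + 1), G protein-coupled receptor 22 was higher in MT_0.25% than in PRO (1.01, adjusted p = 0.000375 in limma). With medium from SEN it was lower than in MT_0.25% (-0.88, adjusted p = 0.00249). Phosphatase and actin regulator 1 was higher in MT_0.25% than in PRO (0.97, adjusted p = 0.0229). After centring neither was called in any comparison. comp30168_c1_seq28 was one of the 14 and was higher in MT_0.25% than in PRO on log2(TPM + 1) (2.34 on the log2 scale, adjusted p = 5.1e-06), and lower than in MT_0.25% with serum (-1.18, adjusted p = 0.00777) and with medium from SEN (-1.29, adjusted p = 0.00264).

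Other transcripts of the same functions were drawn from the study's name tables by keyword. These tables list transcripts that the study itself found to differ from PRO in SEN or MT_0.25%, so the lists are no neutral sample. Over all entries tested, 20.0% rose and 20.0% fell with serum, and 38.0% rose and 31.7% fell in MT_0.25% against PRO. With medium from senescent cells against fresh medium, 19.2% of all entries fell. Among 22 tested of 25 entries for secreted signals and their antagonists, which include TGFB2 and chordin, 4 rose and 3 fell with serum, 13 rose and 2 fell in MT_0.25% against PRO, and 10 fell with medium from senescent cells against fresh medium. All 6 entries for coagulation, complement and protease inhibitors, which include tissue factor and alpha-1-antiproteinase, were tested, and 3 rose and 1 fell with serum, while 2 rose and 3 fell in MT_0.25% against PRO. Among 124 tested of 137 entries for receptors and signal transduction, which include FGFR1, 11 rose and 45 fell with serum, and 107 rose and 1 fell in MT_0.25% against PRO. SEN was the highest of the 6 group means for 11 of the 25, 4 of the 6 and 48 of the 137 entries, and 2, 2 and 3 of them belonged to the 64. None of 42 entries for ion channels and transporters and none of 80 for mobile elements did. The name tables hold 3538 entries, with all but 1 of the 64 among them. At that share few or no members are due in lists of these 2 sizes, so their absence marks no trait of the 64.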

How the data were processed

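RNA of 18 A1 libraries (6 groups of 3) was sequenced. Per the labels and the methods, the authors trimmed reads with Trim Galore and quantified them against a de novo newt transcriptome with Sailfish, whose version no source used here gives. The deposited tables give estimated counts, which need not be whole and were rounded here, and TPM, which the authors' tool scales by transcript length. Depth was 20609828 to 62991718 estimated counts per library, and precision is lowest for entries with few reads. Normalised reads are rounded counts divided by median-ratio size factors over the 21144 entries with reads in every library. The deposited length columns were used only to see whether lengths changed.

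Tests were edgeR 4.0.16 quasi-likelihood tests on rounded counts of all 18 libraries (TMM, filterByExpr by group, 23107 entries tested, Benjamini-Hochberg adjusted p under 0.05), checked on simulated data. Also tried were no filter on low counts, DESeq2 1.42.0, RLE scaling, the 2 groups alone, a replicate block, each library left out, and limma 3.58.1 on log2(TPM + 1). A limma fit after centring each library on its median was added after the data were seen.

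Protein hits were joined from the study's supplementary name tables by matching their group means, because their identifiers were out of step with their rows (1981 of 1993 and 1924 of 1985 rows matched 1 entry), and its marker lists by their library values (124 of 124). The members and lists were chosen with earlier results of these data known. Named transcripts are the 10 with the highest SEN mean, up to 4 with an informative hit per functional list, the 3 largest called changes in each direction per comparison, those nearest to and farthest from the limit, and the 3 with the widest spread between SEN libraries. Others are said to be named after their values were seen.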

Additional observations from a re-analysis of the deposited data

How the results depend on the processing

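The number of transcripts that met the rule was 64, 77 with TMM scaling, 66 without SEN 3, 49 without SEN 1 and 85 without SEN 2, so it ranged from 49 to 85 when 1 SEN library was left out. With TPM in place of scaled counts it was 142, of which 56 were among the 64.

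Log2(TPM + 1) values in limma moved most counts. The counts over all entries in these fits stand with each comparison above. For MT_10% against MT_0.25% they gave 10 higher and 4 lower, for MT_0.25% against PRO 22 higher and 6 lower, for MT_0.25%_SEN_CM against MT_0.25%_PRO_CM 0 higher and 0 lower (1 and 5 at an unadjusted p under 0.05), and for MT_0.25%_SEN_CM against MT_0.25% 0 higher (0 unadjusted) and 25 lower. After centring, chosen after the data were seen, the counts that moved were 3 lower in MT_10%, 1 higher in MT_0.25% against PRO, 0 lower (0 unadjusted) with medium from SEN against that from PRO, and 25 higher and 8 lower for medium from SEN against MT_0.25%. The cause was not tested.

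A fit of the 2 groups alone gave 3 lower of 60 tested for MT_10%, 4 higher of 46 for MT_0.25%_SEN_CM against MT_0.25%_PRO_CM and 1 higher of 55 against MT_0.25%. RLE scaling and DESeq2 gave 3 higher in MT_0.25% against PRO, and DESeq2 gave 2 lower between the conditioned media. The filter on low counts moved no count by more than 1.5 times. With each library left out, MT_10% against MT_0.25% ranged from 20 to 26 higher and 0 to 2 lower, MT_0.25% against PRO from 1 to 5 and 29 to 35, MT_0.25%_SEN_CM against MT_0.25%_PRO_CM from 3 to 7 and 0 to 1, and MT_0.25%_SEN_CM against MT_0.25% from 0 to 3 and 9 to 14.

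Deviations from the group means correlated from -0.219 to 0.329 between same-numbered libraries and from -0.334 to 0.280 between differently numbered ones. These ranges overlap, so the check cannot decide whether the numbers pair the libraries. With the replicate block the counts higher and lower were 25 and 1, 5 and 33, 7 and 1, and 2 and 14 in the same order. Transcripts with few reads outside SEN limit what these tests could detect.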

Other observations

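comp23186_c1_seq1, which is in neither name table and lies nearest to the 4-fold limit, varied widely between replicate libraries outside SEN. SEN libraries held 1119, 873 and 837 normalised reads and PRO libraries 144, 96.9 and 232. Among myotubes, MT_10% libraries held 0, 196 and 4.0, those of MT_0.25%_SEN_CM 18.9, 424 and 264, those of MT_0.25%_PRO_CM 197, 0 and 379.6 and those of MT_0.25% 387, 126 and 149.7. Within MT_10% and MT_0.25%_PRO_CM the libraries thus ranged from 0 to 196 and from 0 to 379.6 reads, and it was called in none of the 4 comparisons.

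Another entry with a closest hit named enolase, comp7105_c0_seq1, had higher means in the myotube groups kept in 0.25% FCS than in SEN, unlike the enolase-like transcript among the 64. Its MT_10% mean was level with SEN, its reads were few, and the difference was not tested. Its group means were 9.18 normalised reads in SEN and 4.08 in PRO, beside 42.8 in MT_0.25%_PRO_CM, 35.5 in MT_0.25%, 30.5 in MT_0.25%_SEN_CM and 9.24 in MT_10%. comp8911629_c0_seq1, with a hit in Cryptosporidium muris, held 669.8, 951 and 903 in SEN and 27.8 to 211 in the other libraries.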
